A study of Mus musculus with 8 samples.

Results

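Small RNA libraries of mouse embryonic fibroblasts (MEFs) were compared, 4 of the 8 libraries of the series. They were chosen as the MEF columns of the count table made by TEsR, a target-enrichment method in which small RNAs joined to linkers are captured by hybridisation before sequencing. All 4 come from MEFs with a conditional knockout allele of TRF2 and a Rosa26-CreERT2 transgene, a Cre recombinase expressed from the Rosa26 locus that 4-hydroxytamoxifen (4OHT) activates. The labels give 2 induced samples, treated with 0.6 µM 4OHT for 48 h, and 2 uninduced samples. They do not say whether uninduced cells received vehicle, whether the samples of a group were separate cultures, or whether the cells were 1 line, so the p-values reflect the variation among these samples alone, and that variation may be technical. The labels used here name no embryo age or strain.

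The column names do not show which libraries were induced. They carry the codes mm and pm, which no label explains, with the numbers 1 and 2 under each code. The sample tags run in the order pm 1, mm 1, pm 2, mm 2, whereas the sample titles list induced 1 and 2 before uninduced 1 and 2, so the order of the tags does not settle the matter. No row of the table is TRF2, so the deletion itself could not be checked. The libraries were therefore compared as mm against pm, and no difference below is assigned to induction or to its absence.

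TRF2 is a protein of the shelterin complex that caps chromosome ends. Without it, telomeres are read as broken DNA, which in fibroblasts activates the ATM kinase and p53 and ends in arrest or senescence, and p53 is known to raise transcription of the miR-34 family. MicroRNAs (miRNAs) are cut from hairpin precursors and pair with messenger RNAs through the seed near their 5′ end. Small nucleolar RNAs (snoRNAs), mostly processed from introns of ribosomal protein and other growth-related genes, guide chemical modification of ribosomal RNA. Each row of the table is a gene or hairpin, so that precursor and mature forms, and the 2 arms of a hairpin, were counted together.

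The sequences on which the miRNA results turn follow, as RefSeq gives them on GRCm38.p6, with the seed (bases 2 to 8) in capitals. Of 40 miRNA rows looked up, 39 matched by name. They are shown because several of the rows that differed between pm and mm share a seed with a neighbour or paralog without a call. These either did not pass the test or, as Mir34b, had too few counts to be tested.
mmu-miR-27b-3p: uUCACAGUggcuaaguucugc
mmu-miR-27a-3p: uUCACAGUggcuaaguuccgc
mmu-miR-29b-3p: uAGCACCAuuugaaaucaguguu
mmu-miR-29a-3p: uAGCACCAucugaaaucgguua
mmu-miR-34a-5p: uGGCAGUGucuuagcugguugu
mmu-miR-34b-5p: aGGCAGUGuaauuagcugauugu
mmu-miR-152-3p: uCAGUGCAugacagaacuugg
mmu-miR-132-3p: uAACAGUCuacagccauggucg
mmu-miR-130b-3p: cAGUGCAAugaugaaagggcau
mmu-miR-335-5p: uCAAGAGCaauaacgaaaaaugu
mmu-miR-182-5p: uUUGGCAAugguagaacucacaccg
The miR-27 and miR-29 pairs each share a seed, as do miR-34a-5p and miR-34b-5p. The rows Mir29b-1 (chromosome 6) and Mir29b-2 (chromosome 1) hold the same mature miR-29b-3p, and how reads from a shared sequence were split between rows is not stated.

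The libraries held 3729180 (mm 1), 3768668 (mm 2), 3536805 (pm 1) and 3221641 (pm 2) counts, and 505 of 5518 rows had a count in any of them, among them 280 miRNA, 208 snoRNA, 15 snRNA and 1 rRNA rows. Only 2 snoRNA rows held most of the reads. Snord70, in an intron of Nop58, held 39.8% ± 2.63 of a library's counts (mean ± SD over the 4 libraries), and Snord68, in Rpl13, held 39.6% ± 2.92. Overlapping rows were counted more than once: 28 of 32 overlapping pairs carried the same numbers in all 4 libraries. Every one of the 15 pairs on opposite strands was among these, so a gene and an antisense row cannot be told apart. The fibroblast label was checked against its markers. All 24 mesenchymal miRNA rows had counts, in sum 33406 and 8254 CPM (counts per 1000000 counts of the library) in mm 1 and mm 2 and 45207 and 30938 in pm 1 and pm 2, against 220 and 241 in the 2 libraries of mouse embryonic stem cells. The 12 pluripotent rows summed to 0, 1.33, 0 and 0 CPM in the same order, against 475 and 517 in the stem cells. In each MEF library most of the mesenchymal sum came from Mir21a and Mir29b-1, while Mir199a-2 had at most 2 counts. The stem cell libraries also held less miRNA in all, at 0.313% and 0.317% of their counts, against 1.67% to 7.54% in the MEF libraries. Of the other cell types, the 9 epithelial rows summed to 136.2 and 68.7 CPM in mm and 80.6 and 68.9 in pm, nearly all from Mir182 and Mir183. Muscle rows reached at most 4.56 CPM, neural rows at most 1.41, and blood rows and the liver row had no count.

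The miRNA share of the counts overlapped between the pairs. It was 5.68% (95% exact Clopper-Pearson interval 5.65% to 5.70%) in mm 1, 1.67% (1.66% to 1.68%) in mm 2, 7.54% (7.52% to 7.57%) in pm 1 and 4.96% (4.94% to 4.99%) in pm 2. Library mm 2 stood apart with the lowest share, and in each pair the library numbered 1 had more miRNA than the library numbered 2. The mean was 3.67% ± 2.83 in mm and 6.25% ± 1.83 in pm (SD, n = 2), a difference of 2.58 percentage points (two-sided exact permutation p = 0.667, where 0.3333 is the smallest p that 2 against 2 allows). The difference was 0.576 percentage points without mm 2 and 4.58 without mm 1. The snoRNA share was the mirror of this, at 96.3% ± 2.83 in mm and 93.7% ± 1.83 in pm (SD, n = 2). In bulk RNA, fewer cells that express an RNA and less of it per cell cannot be told apart. The intervals cover counting error only, since no label mentions molecular identifiers on the reads.

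**Figure D1:**
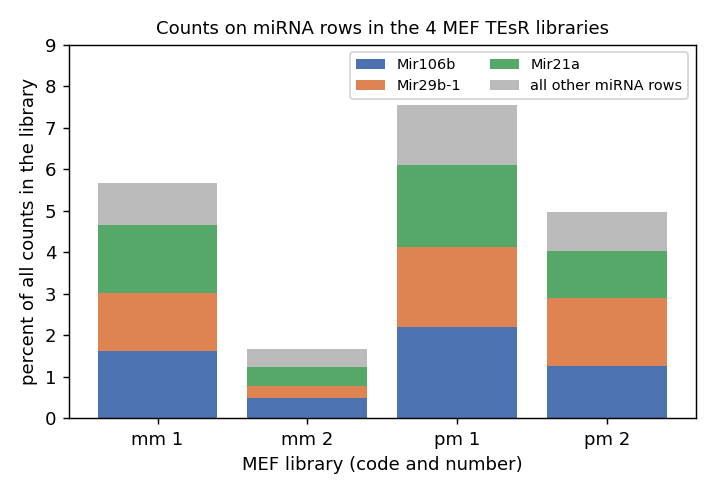
Stacked bars give the percent of each MEF library's counts on miRNA rows, divided into Mir106b, Mir29b-1, Mir21a and all others. Library mm 2 is lowest at 1.67% and pm 1 highest at 7.54%, and the pairs overlap.

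The same 3 miRNAs led in every library. Mir106b (intron of Mcm7, a proliferation-linked host), Mir29b-1 and Mir21a (in Vmp1, an abundant fibroblast miRNA) held 83.4% and 80.7% of the clear miRNA counts in mm and 82.7% and 84.8% in pm. Clear miRNA rows are those free of any overlap with a snoRNA or rRNA row, duplicates being counted once. The row AC161199.1, in Rpl3, was also left out of them by name. The next most abundant, Mir27b apart, were Mir19a, Mir484, Mir221, Mir29b-2, Mir214 and Mir25. Below, miRNA CPM are CPM over the clear miRNA counts of a library in place of all its counts. Mir221, a repressor of cell cycle inhibitors, was at 17397 and 17748 miRNA CPM in mm and 13844 and 8603 in pm. Mir484 had 18571 and 18570 in mm and 9966 and 13495 in pm. Neither passed a test below. The snRNA rows, the RNAs of the spliceosome and their relatives, had only 19 and 16 counts in mm and 40 and 46 in pm. Their pairs did not overlap (exact permutation p = 0.3333), though each library held at most 46 such counts. The rRNA rows had 1 count, in pm 2.

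The numbers of RNAs detected overlapped between the pairs. With each library thinned to 3221641 counts, 224 rows reached 10 counts in mm 1, 193 in mm 2 and 227 in pm 1, and pm 2 lay between the mm libraries (two-sided exact permutation p = 0.667). Library mm 2 was lowest, with 76 miRNA rows. The miRNA rows numbered 91.5 ± 21.9 in mm and 101.5 ± 9.19 in pm (SD, n = 2). Among snoRNA rows both libraries of a pair gave the same number, and pm had 1 row more than mm.

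With all rows scaled together, few RNAs differed between pm and mm. The edgeR quasi-likelihood test was applied to 102 miRNA rows, 119 snoRNA rows, 1 snRNA row and 1 row of no fixed type, and 6 passed an adjusted p of 0.05, or 2.69%. Higher in pm were 5 rows (2.24%), all miRNAs, and higher in mm was 1 row (0.448%), the snoRNA Snord100. The median log2 fold change, pm minus mm, was 0.10 over all tested rows, 0.22 over the 102 miRNA rows and -0.04 over the 119 snoRNA rows. An unadjusted p under 0.05 was reached by 22 rows. In 74 rows (33.2%) the CPM of the pairs did not overlap. The count depended on single libraries and on scaling. It was 22 without mm 1, 2 without mm 2, 1 without pm 1 and 0 without pm 2. Of the 6, 4 were among the 22 called without mm 1 and 0 among the calls without mm 2 (Gm25296 and Mir7688) or without pm 1 (Mir7688). It was also 0 with libraries scaled by their totals alone, where 22 rows had an unadjusted p under 0.05 and the median of all rows moved to 0.33. DESeq2 called 2, Mir27b and Snord100.

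**Figure D2:**
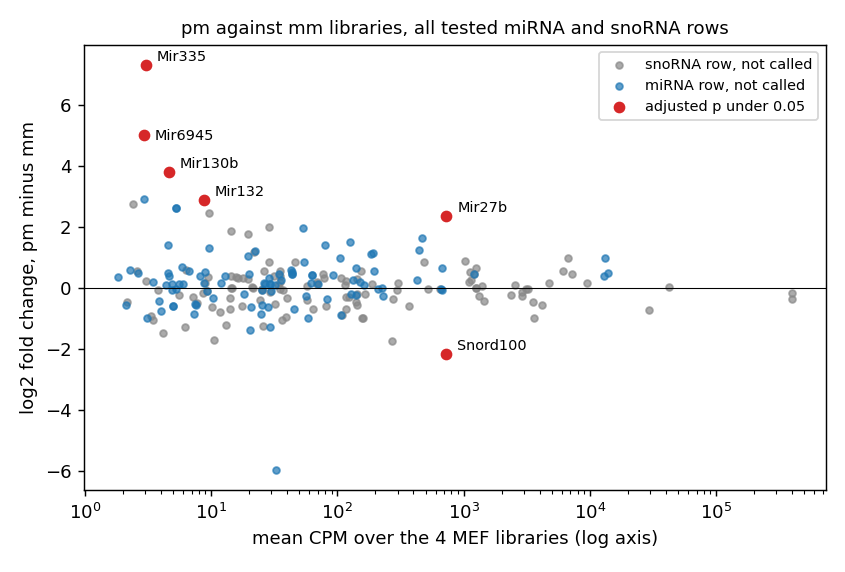
Each point is a tested miRNA or snoRNA row, with its mean CPM over the 4 MEF libraries on a log axis and its fitted log2 fold change, pm minus mm. The 6 labelled red points passed the adjusted threshold: 5 miRNAs above 0 and Snord100 below; 4 of the miRNAs lie under 10 CPM.

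Mir27b was the one abundant miRNA among the calls. Its hairpin lies on chromosome 13 (63300712 to 63300784, mm10, plus strand) in the noncoding host 2010111I01Rik, beside Mir23b and Mir24-1, and miR-27 is known as a repressor of fat cell formation. It had 1198 and 357 counts in mm and 5995 and 2615 in pm, or 321 and 94.7 CPM against 1695 and 812. Both pm libraries were higher than both mm libraries. The log2 fold change was 2.36 ± 0.64 (SE; adjusted p = 0.0261). The call was kept without mm 1 and lost without mm 2 (1.83), without pm 1 (2.10) and without pm 2 (2.58).

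The other miRNA calls rested on few reads. Mir335, in an intron of the imprinted gene Mest, had no count in either mm library and 29 and 13 in pm (8.20 and 4.04 CPM). The mean pm CPM was 7.64 times the mean limit in mm, with 3 counts per library taken as the limit of a count of 0. Mir130b had 4 and 0 counts in mm and 32 and 27 in pm (log2 fold change 3.79 ± 1.13, adjusted p = 0.0372). Mir132, which is known to respond to CREB signalling, had 15 and 0 counts in mm and 46 and 58 in pm (2.88 ± 0.87, adjusted p = 0.0455). Mir6945, in Pdlim7, had 1 and 0 counts in mm and 14 and 24 in pm. Over the alternatives that gave a value, the call was lost in 10 of 12 for Mir132, among them without mm 2 (log2 fold change 1.95), in 8 of 12 for Mir130b, in 8 of 11 for Mir6945 and in 5 of 11 for Mir335. All 4 had no count in mm 2, the library with the least miRNA. Whether that low miRNA yield has a part in these calls was not tested.

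Scaling the miRNA rows on their own compares each miRNA with other miRNAs and takes out the differing miRNA share. It was planned as an alternative to the fit above. Of 105 miRNA rows, 20 then passed (19%), 15 higher in pm (14.3%) and 5 higher in mm (4.76%), with a median log2 fold change of 0.02. Of these, 4 were also called over all rows. All 20 had the same sign in every one of up to 22 fits that tested them. Those fits reuse the same 4 MEF libraries, so a kept sign is not independent support. Their calls were less stable than their signs: whichever library was left out, most of the 20 did not pass. DESeq2 called 12 rows, of which 11 were among the 20. With library totals alone 13 rows passed, 9 of them among the 20. Of these 13, 5 were higher in pm and 8 in mm, and the median was -0.45, so the balance of directions depends on the scaling. The miRNA CPM below rest on totals of clear miRNA counts, whereas the fold changes beside them come from the fit with TMM scaling. They therefore need not match the ratio of the miRNA CPM. With library totals alone the log2 fold change was 0.51 in place of 0.98 for Mir29b-1 and -1.77 in place of -1.26 for Mir182. As shares of clear miRNA counts, 17 of the 18 called rows that have one did not overlap between pairs, against 64 of 95 tested rows (67.4%).

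Mir152 had the smallest adjusted p of these. It lies in an intron of Copz2 on chromosome 11 (96850393 to 96850465) and belongs to the family of miR-148. It was at 534 and 664 miRNA CPM in mm and 1432 and 1468 in pm, so each pair was tight and the pairs stood well apart. The log2 fold change was 1.79 ± 0.27 (edgeR adjusted p = 4.49e-08). Among all rows it was 1.95 ± 0.68 and did not pass (adjusted p = 0.104).

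The 3 hairpins of the miR-23b cluster on chromosome 13 all passed. Mir27b was at 5764 and 6243 miRNA CPM in mm and 22953 and 17056 in pm (log2 fold change 2.23 ± 0.40, edgeR adjusted p = 3.72e-06). Mir23b had 1491 and 2396 in mm and 3120 and 3294 in pm (1.27 ± 0.30). Mir24-1 had only 4 and 5 counts in mm and 46 and 18 in pm. Its call cannot be separated from that of Mir3074-1, which overlaps it on the other strand with the same counts. The paralogous cluster on chromosome 8, in contrast, had no member past the threshold: the log2 fold changes were 0.50 ± 0.32 for Mir27a, -0.16 ± 0.32 for Mir23a and -0.79 ± 0.72 for Mir24-2. Whether the 2 clusters differ from each other in this change was not tested.

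Both genes for miR-29b, a regulator of collagen and other matrix messages, were higher in pm among miRNAs. Mir29b-2 was at 6009 and 4791 miRNA CPM in mm and 13481 and 9921 in pm (1.59 ± 0.37, edgeR adjusted p = 3.82e-04). Mir29b-1 had 248001 and 185546 in mm and 262524 and 344367 in pm (0.98 ± 0.25, adjusted p = 0.00204). Here mm 1 and pm 1 differed little. The Mir29b-1 call held in 1 of 8 alternatives and was lost with DESeq2 (adjusted p = 0.138), with library totals alone, with a replicate block and with any 1 library left out, where the fold change ranged from 0.62 to 1.39. Their neighbours did not pass: Mir29a had a log2 fold change of -0.50 ± 0.26 and Mir29c of 0.31 ± 0.74.

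Mir214 and Mir143, also on the mesenchymal list, and Mir28a, which is not on it, were higher in pm. Mir214, in the Dnm3os transcript, was at 7419 and 4546 miRNA CPM in mm and 10758 and 10103 in pm (1.26 ± 0.36). Mir143, known from smooth muscle and fibroblasts, had 1771 and 2028 in mm and 2274 and 2537 in pm (0.86 ± 0.28). Its fold change was 0.38 with library totals alone. Mir28a, in Lpp, stood above mm only in pm 1, with 3017 and 2693 in mm and 5571 and 3000 in pm. Mir1983 (1.19 ± 0.25) and Mir224 (2.63 ± 1.00, with 1 and 3 counts in mm and 28 and 9 in pm) completed the 15, with Mir335, Mir130b and Mir132 from the fit over all rows. Several of these calls were often lost over the alternatives among miRNA rows that gave a value. Losses were 6 of 9 for Mir214 and for Mir143, 5 of 9 for Mir28a, 4 of 9 for Mir1983 and 7 of 8 for Mir224. Among the 20 mesenchymal marker rows tested, 8 were higher in pm and 1 in mm, with a median log2 fold change of 0.39, beside the 19% called and the median of 0.02 over all miRNA rows. The fold change was above 0 in 13 of the 20 and below 0 in the rest. That list includes the miR-23b cluster and both miR-29b rows.

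**Figure D3:**
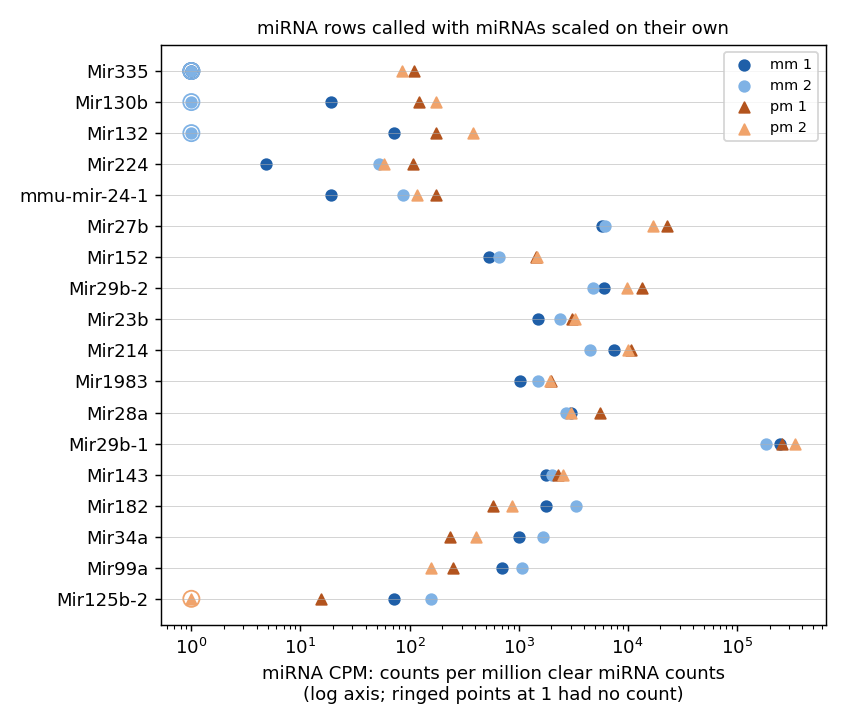
Levels in miRNA CPM (log axis) in each MEF library for 18 called miRNA rows; circles are mm libraries, triangles pm libraries, and ringed points had no count. Rows from Mir143 upward are higher in pm and the lowest 4 higher in mm; for Mir28a the pm 2 point lies between the mm points.

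Higher in mm were 5 miRNA rows, led by Mir182 and Mir34a. Mir182 was at 1771 and 3375 miRNA CPM in mm and 578 and 874 in pm (log2 fold change -1.26 ± 0.26, edgeR adjusted p = 1.28e-04). Mir34a had 1006 and 1661 in mm and 234 and 404 in pm (-1.51 ± 0.37, adjusted p = 8.01e-04). Mir99a had 707 and 1067 in mm and 249 and 157 in pm (-1.58 ± 0.48). In CPM over all counts its pairs overlapped, at 39.4 and 16.2 in mm and 18.4 and 7.45 in pm. Mir125b-2, in the same host transcript Mir99ahg, had 15 and 9 counts in mm and 4 and 0 in pm. The fifth, AC161199.1, lies in an intron of Rpl3 and is typed as a miRNA by the annotation, with 140 and 86 counts in mm and 88 and 47 in pm. It was not among the clear miRNA rows, and its CPM overlapped between pairs, at 37.5 and 22.8 in mm and 24.9 and 14.6 in pm. Over the alternatives among miRNA rows that gave a value, the call held in 6 of 9 for Mir182 and for Mir34a. It held in 5 of 9 for Mir99a, 4 of 9 for AC161199.1 and 3 of 8 for Mir125b-2.

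The p53 and DNA damage miRNAs gave no call over all rows. Of 15 rows, 13 had counts and 8 were tested over all rows, of which 0 passed, beside 2.69% of all rows, with a median log2 fold change of 0.41, beside 0.10. By edgeR 0 of the 8 had an unadjusted p under 0.05, and DESeq2 called 0 of them. With miRNAs scaled on their own, Mir143 was higher in pm and Mir34a higher in mm, and the median was 0.21.

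Mir34a (chromosome 4, 150068454 to 150068555) had 209 and 95 counts in mm and 61 and 62 in pm, or 56.0 and 25.2 CPM against 17.2 and 19.2. Both mm libraries were higher, with mm 2 close to pm. Over all rows its log2 fold change was -1.28 ± 0.66 (edgeR adjusted p = 0.489). Its relatives on chromosome 9 had few counts: Mir34b had 16 and 3 in mm and 7 and 1 in pm, and Mir34c had 20 and 3 in mm and none in pm. Neither was tested, for lack of counts. As the codes are unexplained, the levels of these miRNAs were not used to assign them.

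The remaining members gave no call. Mir145a, the cluster partner of Mir143, had 55 and 30 counts in mm and 130 and 63 in pm (0.79 ± 0.51 among miRNAs). Of the miR-15/16 rows on that scale, Mir15a, in the tumour-suppressor locus host Dleu2, gave 0.55 ± 0.31, Mir16-1 gave 0.04 ± 0.71 and Mir16-2, which lies in Smc4, gave -0.06 ± 0.71. Mir22 gave 0.26 ± 0.27 and Mir192 gave 0.16 ± 0.72. Mir107 had 1 and 3 counts in mm and 15 and 7 in pm and was not tested, and Mir215 and Mir194-2 had at most 2 counts in any library.

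Of the senescence and inflammation miRNAs, 8 rows were tested among miRNAs and 3 were higher in pm, Mir29b-1, Mir29b-2 and Mir24-1, with a median of 0.29, beside 14.3% higher in pm and a median of 0.02 over all miRNA rows. Mir155, a miRNA of inflammatory signalling, had 23 and 4 counts in mm and 6 and 3 in pm (-1.67 ± 0.91, not called), and Mir146b had 2 counts in all. The growth-promoting miR-17-92 cluster and its paralogs had 8 tested rows and 0 calls, with a median of 0.13 among miRNAs, where 19% of all rows were called. Mir17 came nearest, at -0.76 ± 0.30 (edgeR adjusted p = 0.0632). The let-7 rows, which are low in stem cells and high in differentiated cells, gave 0 calls in 4 tested rows, with a median of -0.31.

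Ratios between neighbouring hairpins need no scaling between libraries, and were computed after the values above were seen. Neighbours were miRNA rows within 10000 bases with a mean of at least 20 counts, which gave 25 ratios from 32 rows. Of these, 12 were higher in both pm libraries, 3 higher in both mm libraries and 10 overlapped, so 60.0% did not overlap. Many ratios share a row, and no test was made.

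Mir29b-1 stood at 102 and 68.0 times Mir29a in mm and at 198 and 279 times in pm. Mir27b stood at 3.86 and 2.61 times Mir23b in mm and at 7.36 and 5.18 in pm. In the miR-17-92 cluster, Mir19a stood at 8.10 and 14.1 times Mir17 in mm and at 19.8 and 31.7 in pm. Mir182 stood at 3.12 and 3.45 times Mir183 in mm and at 1.26 and 1.68 in pm. Neighbouring hairpins are often cut from a shared transcript. Mir143 against Mir145a overlapped, at 6.69 and 3.87 in mm and 4.57 and 6.17 in pm.

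**Figure D4:**
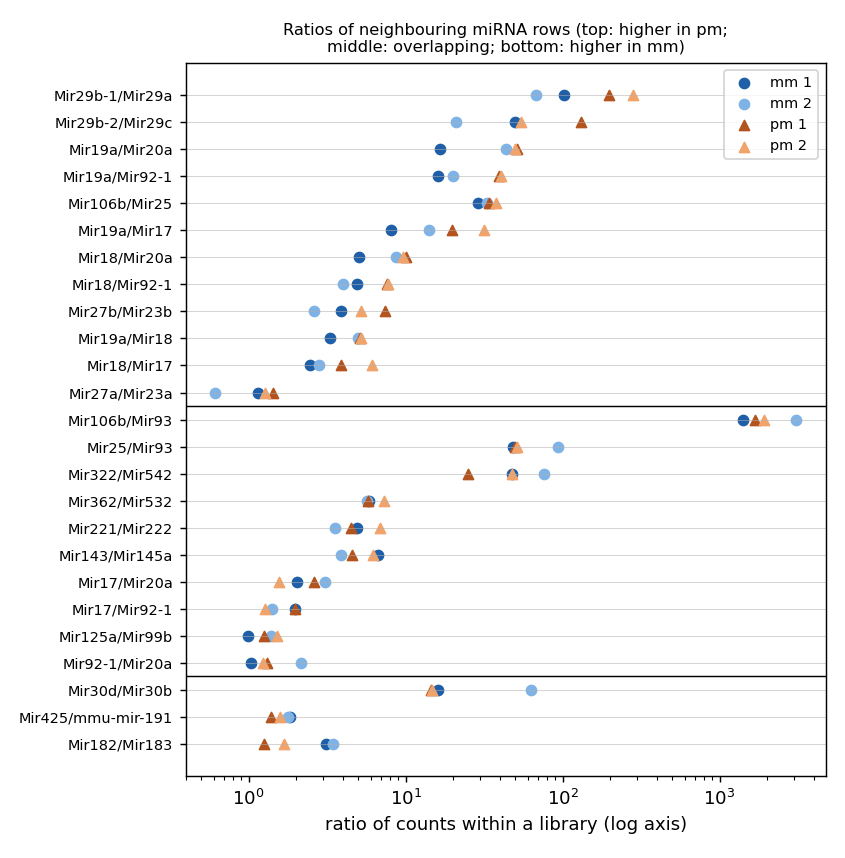
Ratios of counts of neighbouring miRNA rows within each MEF library (log axis); circles are mm and triangles pm libraries. The 12 ratios in the top block are higher in both pm libraries, the 10 in the middle overlap, and the 3 at the bottom are higher in both mm libraries.

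Among snoRNAs scaled on their own, 4 of 119 rows passed (3.36%), 2 in each direction (1.68% each). All 4 are box C/D snoRNAs by name, the class that guides ribose methylation. The sequences of 3 are shown as the annotation's transcripts on GRCm38, plus or minus strand as transcribed, with the C box letters TGATGA and the D box letters CTGA in capitals where a search on the transcribed strand found them in the first 15 and last 12 bases.
Snord100: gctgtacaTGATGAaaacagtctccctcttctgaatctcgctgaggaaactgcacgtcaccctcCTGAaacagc
Snord104: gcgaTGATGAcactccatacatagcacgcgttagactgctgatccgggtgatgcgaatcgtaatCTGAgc
Snord123: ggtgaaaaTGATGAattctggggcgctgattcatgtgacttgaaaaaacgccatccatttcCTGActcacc
Both motifs were found in these windows in 82 of 208 snoRNA rows with counts (39.4%). They were not found there in Snord91a.

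Snord100 lies in Rps12, a ribosomal protein gene, at chromosome 10 (23785750 to 23785823). It had 3702 and 4890 counts in mm and 1081 and 940 in pm, or 993 and 1298 CPM against 306 and 291.8. Both mm libraries were over 3 times as high as either pm library. The log2 fold change was -2.17 ± 0.62 over all rows (edgeR adjusted p = 0.0372) and -2.04 ± 0.46 among snoRNAs (adjusted p = 0.00154). The call over all rows was lost without mm 2, without pm 1 and without pm 2, with values from -2.46 to -1.76. The other snoRNA row in Rps12, Gm23130, had 11311 and 16937 counts in mm and 14965 and 8104 in pm, and its pairs overlapped.

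Snord91a, in an intron of the ribosome assembly gene Tsr1, had 1483 and 1573 counts in mm and 357 and 532 in pm (-1.65 ± 0.40, edgeR adjusted p = 0.00352). Snord104 had 56 and 26 counts in mm and 139 and 172 in pm (2.01 ± 0.54, adjusted p = 0.0107). Snord123, in the noncoding host Snhg18, had 8 and 12 counts in mm and 52 and 60 in pm (2.56 ± 0.72, adjusted p = 0.0129). For all 4 the mm and pm libraries did not overlap, as in 33.2% of all rows tested. Leaving out mm 1, mm 2 or pm 1 left 0 snoRNA calls, with 10, 10 and 20 rows at an unadjusted p under 0.05, and leaving out pm 2 gave 14.

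**Figure D5:**
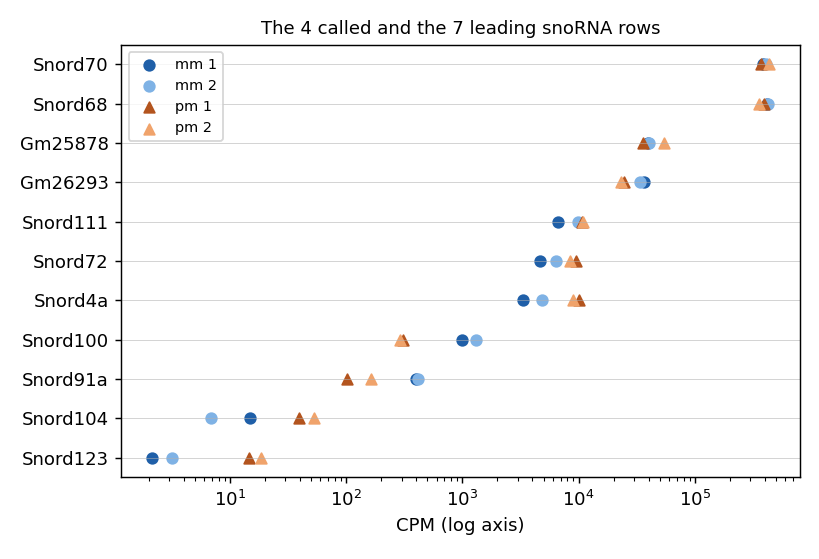
CPM (log axis) of the 4 snoRNA rows called among snoRNAs and of the 7 snoRNA rows with the most counts, in each MEF library. Snord100 and Snord91a are higher in mm and Snord104 and Snord123 higher in pm, while Snord70 and Snord68 lie between 358073 and 430908 CPM in every library.

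The most abundant snoRNA rows gave no call. Snord70 was at 382977 and 406405 CPM in mm and 371609 and 430908 in pm, and its log2 fold change among snoRNAs was -0.05 ± 0.39. For Snord68 it was -0.27 ± 0.39, for Gm25878 in Zfas1 0.14 ± 0.42, for Gm26293 in Nop58 -0.65 ± 0.42, for Snord111 in Sf3b3 0.30 ± 0.44 and for Snord72 in Rpl37 0.60 ± 0.45. Snord4a, in Rpl23a, had 12354 and 18148 counts in mm and 35488 and 28634 in pm, without passing (1.11 ± 0.45, edgeR adjusted p = 0.199). Of 34 tested snoRNA rows in ribosomal protein genes, 1 passed over all rows, Snord100, beside 2.69% of all rows tested. The 4 rows of Nop58 and the 3 of Nop56, hosts that encode core proteins of box C/D particles, had no call, with medians of -0.11 and -0.98 over all rows, beside 0.10 for all rows tested. Within Nop56, Snord110 had 14483 and 20325 counts in mm and 6639 and 10664 in pm. The 10 rows of Gas5, a growth arrest-associated host, had a median of -0.28 and no call, and the 7 of Snhg1 a median of 0.27 and no call. The 4 Rpl13a snoRNAs, linked to metabolic stress, had a median of -0.73 and no call.

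Other rows whose pairs did not overlap, named without a call over all rows, were Snord89 (55 and 62 counts in mm, 21 and 17 in pm), Gm23969 in Rpl7a (76 and 53 counts in mm, 38 and 22 in pm), Snord57 in Nop56 (41.6 and 52.3 CPM in mm, 26.3 and 26.4 in pm) and Mir7688. The last had 452 counts in mm 1, 23 in mm 2, 8 in pm 1 and 0 in pm 2, so that mm 1 held most of them. By edgeR the unadjusted p over all rows was 0.0281 for Snord89 and 0.0394 for Mir7688, but 0.102 for Gm23969 and 0.105 for Snord57, which did not reach 0.05 even before adjustment.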

How the data were processed

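The authors deposited unnormalized counts of reads, as whole numbers for each annotated RNA, per the file headers. The submitters' processing notes name cutadapt, BWA 0.7.12, SAMtools 1.2.1, bedtools 2.25.0 and mm10; the role of each, whether counting used strand, and what a q10 tag in the column names means, is not given in the sources used here. Ribosomal RNA was removed before capture, per the labels' protocols, which bears on the rRNA and snRNA shares. Rows were typed and placed with GENCODE vM21; 5453 of 5518 were in it, 5445 at the same coordinates, and the other 65 had no MEF count.

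Pairs were tested with edgeR 4.0.16 in R 4.3.3 (quasi-likelihood, robust, TMM scaling, filterByExpr with a minimum count of 10, Benjamini-Hochberg over all rows tested, threshold 0.05). The fit was first run on simulated counts with a lower dispersion (spread between replicates) than the 0.201 fitted here. That run does not show the error rates for these libraries. DESeq2 1.42.0 was an alternative. The libraries of a pair were far from identical (chi-square over its degrees of freedom 436 in mm, 310 in pm), and none was counted as a duplicate. Across rows, which are not independent replicates, Pearson's r of log2 CPM was 0.951 within mm, 0.968 within pm and 0.941 to 0.952 between pairs. Scaling factors were 1.03, 0.827, 1.35 and 0.868.

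Named RNAs were the called rows of at least 10 CPM, up to 8 a direction (filled with the smallest unadjusted p), up to 4 called members of each list, the 10 rows and 10 clear miRNA rows with the most counts, and all p53 list members with counts. Called rows below 10 CPM, rows called only with miRNAs or snoRNAs scaled on their own, and the neighbour ratios were added after their values were seen. The members and the 20 lists and 7 marker lists were chosen with earlier results of these data known.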

Additional observations from a re-analysis of the deposited data

How the results depend on the processing

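Over all rows, 6 RNAs passed. The count was 2 with DESeq2, 0 with library totals alone, 20 with miRNA rows scaled on their own and 2 with all 6 TEsR libraries in the fit, and ranged from 0 to 22 when 1 library was left out. Without a filter 5 of 505 rows passed, 2 of them among the 6, and with snoRNA rows alone, identical rows counted once or the 3 leading rows left out the count was 4 or 5. List members past the threshold were 1, against 0 with library totals alone, 0 without a filter, 5 among miRNA rows, 4 among snoRNA rows and 0 to 12 with a library left out. Among miRNA rows, 20 passed, against 12 with DESeq2, 13 with library totals alone and 0 to 10 with a library left out. Among snoRNA rows, 4 passed, against 0 with library totals alone and 0 to 14 with a library left out. The snRNA difference was 0.00138 percentage points with the leading row left out of the total. No direction reversed among the named RNAs. Over the alternatives of named RNAs that were called, the call was lost in 57.9% of cases. For named RNAs without a call over all rows, it was gained in 12.5%. These gains include calls already given above, with miRNA or snoRNA rows scaled on their own: Mir152, Mir34a, Mir99a, Snord91a, Snord104 and Snord123. Where a library was left out, the lone library of its pair was assumed to vary like the other pair. The cause of these changes was not tested. The alternatives within miRNA and snoRNA rows were added after seeing the data.

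Labels and columns share the numbers 1 and 2, but nothing says that a number marks a shared culture, and same-numbered deviations correlated at 0.133, from 2 pairs. With a replicate block, 7 rows passed over all rows, with 2 list members, 24 among miRNA rows and 3 among snoRNA rows. Depth limits the rare rows: 3 counts, the limit of a count of 0, are 8.04e-05% of mm 1.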

Other observations

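Several gene groups had too few counts in these MEF libraries to compare. The box H/ACA snoRNAs by name, which guide pseudouridylation, had counts in 21 of 39 rows. They summed to only 22.5 and 31.8 CPM in mm and 58.8 and 23.6 in pm. The stem cells sequenced by the same method had 10135 and 8672 CPM. There Snora21 alone held 27723 of 28227 and 22744 of 23212 counts, so the stem cell sums mainly describe that row. In the MEFs Snora21 had 54 and 80 counts in mm and 159 and 17 in pm. Of the H/ACA list 1 row was tested, with no call. The snoRNAs of pre-rRNA cleavage summed to 20.4 and 11.9 CPM in mm and 9.33 and 10.9 in pm, with 2 rows tested and 0 called. The list made for the imprinted Dlk1-Dio3 locus had counts in 10 of 53 rows, with 29.2 and 14.6 CPM in mm and 26.6 and 24.2 in pm. Most of these counts were on Mir345, with 99 and 38 in mm and 74 and 49 in pm. Mir345, in Slc25a47, and Mir342, in Evl, start at 108836973 and 108658620 on chromosome 12. The other rows with counts start from 109590447 on, so the sums mainly describe a row apart from them. Of the Hox locus miRNAs, Mir196b had 65 and 24 counts in mm and 160 and 65 in pm (1.02 ± 0.49 among miRNAs, edgeR adjusted p = 0.151).

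The Eif4a2 snoRNAs summed to 711 and 1001 CPM in mm and 1310 and 1517 in pm, and the Taf1d snoRNAs to 5482 and 3819 in mm and 4316 and 2989 in pm, with no call in either. Cajal body RNAs summed to 10.2 and 6.63 CPM in mm and 13.6 and 10.2 in pm, and imprinted snoRNAs to 5.63 and 13.8 in mm and 10.2 and 5.90 in pm, also without a call. Of 60 tested box C/D snoRNAs by name, 1 passed over all rows, Snord100, beside 2.69% of all rows tested. The 1 snRNA row tested did not pass.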
